A study of Mus musculus with 13 samples.

Results

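The insulin-like growth factor (IGF) axis was described through 10 genes of 55332 with values in the count table. They are the ligand genes Igf1 and Igf2, the non-coding gene H19 beside Igf2, the receptor genes Igf1r and Igf2r, and the binding protein genes Igfbp2, Igfbp3, Igfbp4, Igfbp5 and Igfbp6. The genes were chosen by name from the pathway, and this was done with the levels of these same tumors by tissue and genotype already known. Their differences between groups are therefore a description, and the adjusted p-values printed beside them, taken over all genes tested, only set a difference against the spread between tumors. All 10 genes were found by Ensembl identifier and passed the count filter in every comparison.

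The tumors are mouse NUT carcinomas (mNC), which carry a fusion gene of Nutm1 formed by a chromosome translocation that Cre induces (the NCT allele). Total RNA depleted of ribosomal RNA was sequenced from 13 bulk tumors, to ask what loss of the transcription factor SOX2 changes in each tissue. The 4 oral Sox2 WT tumors are labelled KRT14-Cre; NCT+/- and the 2 oral Sox2 KO tumors KRT4Cre; NCT+/-; Sox2fl/fl, where the study's methods name KRT14-Cre. The 4 pancreatic Sox2 WT tumors are labelled Pdx1-Cre; NCT+/- and the 3 pancreatic Sox2 KO tumors Pdx1-Cre; NCT+/-; Sox2fl; fl. All tumors thus share a Cre transgene and 1 NCT allele, and the WT labels carry no floxed Sox2. Ages are not given in the sources used here. Cre acts only in cells that express Krt14 or Pdx1 and in their descendants, while bulk tumors also hold other cells, and neither Sox2 nor the fusion was measured by cell type here. Labels call each sample a tumor and name no animal, so p-values measure the spread between tumors.

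In oral tumors estimated counts totalled 29393925 to 40419965 in WT and 11735031 and 20431977 in KO tumors. In pancreatic tumors they totalled 40964171 to 46134532 in WT and 89562488 to 120482588 in KO tumors. Library size thus separated WT from KO tumors in both tissues, with KO lower in oral and higher in pancreatic tumors. Apart from thinning the counts to the smallest library, its part in the genotype differences was not tested. Sox2 itself had 410 to 1487 counts in WT tumors and 0 to 2 in KO tumors. Oral KO replicate 1 stood apart, with 59.5% of its counts on protein-coding genes against 84.5% to 91.7% in the others. The 7 squamous tumor markers (Krt5, Krt14, Trp63, Nutm1, Epcam, Cdh1 and Krt15) summed to between 3043 and 13713 CPM (counts scaled to library size, as defined for the levels below) in every tumor. The 12 skeletal muscle markers summed to 5363 and 2919 CPM in oral KO replicates 1 and 2 and to 534 CPM in oral WT replicate 4, but to 6.33 CPM or less in the other tumors. The 10 fibroblast markers summed to 9492 to 19886 CPM in oral WT, 10202 and 10365 CPM in oral KO, 1190.1 to 2371 CPM in pancreatic WT and 2310.2 to 3941 CPM in pancreatic KO tumors. None of these skeletal muscle, fibroblast or squamous markers was at 0 throughout a group. The 7 muscle progenitor and embryonic markers summed to 1.99 and 54.5 CPM in oral KO replicates 1 and 2. In the other tumors they summed to 5.72 CPM or less. Of them, 1 was at 0 throughout oral KO, 4 throughout pancreatic WT and 2 throughout pancreatic KO tumors. Pancreatic acinar markers, 7 digestive enzyme genes, were low, at 4.01 to 13.5 CPM, in all pancreatic tumors but KO replicate 3, which had 249 CPM. Levels below are TMM-normalized CPM, with the SD over tumors, and in bulk tissue fewer cells of a type and less RNA per cell cannot be told apart.

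IGF1 and IGF2 are secreted peptides related to insulin that bind the receptor tyrosine kinase IGF1R and drive growth through PI3K-AKT and MAPK signaling. IGF2R, a scavenger receptor without kinase activity, takes IGF2 to lysosomes, and the IGFBP proteins bind both peptides in the extracellular space and set how much reaches the receptor. Igf2 and H19 are imprinted neighbors that share enhancers, Igf2 being expressed from the paternal and H19 from the maternal chromosome; both are abundant in fetal tissues and mostly silenced after birth, except in a few tissues and in many tumors.

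Igf2 (ENSMUSG00000048583) lies on the minus strand of GRCm38 chromosome 7 at chr7:142650766-142666816, and H19 (ENSMUSG00000000031) on the same strand at chr7:142575529-142578143. The start of Igf2 lies 88.7 kb from that of H19. Each gene hosts a microRNA, miR-483 in Igf2 and miR-675 in H19, and the mature sequences of RefSeq (GRCm38.p6) are shown because these small RNAs are products of abundant genes of the axis. Capitals mark the seed, bases 2 to 8 from the 5′ end, and no seed is shared among the 4 sequences.
mmu-miR-675-5p: uGGUGCGGaaagggcccacagu
mmu-miR-675-3p: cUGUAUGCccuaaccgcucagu
mmu-miR-483-5p: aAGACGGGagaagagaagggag
mmu-miR-483-3p: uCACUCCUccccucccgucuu
These positions run from 142577078 to 142577133 for the miR-675 pair and from 142654932 to 142654989 for the miR-483 pair, all on the minus strand. The libraries were not made for small RNAs, so mature microRNAs were not measured. The hairpin gene Mir675 had 0 counts in all 13 tumors, but its sequence lies within H19 and its reads can be assigned there, so this 0 sets no limit on the hairpin. Mir483 had at most 10 counts in any tumor.

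RefSeq start-site windows, from 250 bases before to 50 bases after a start, were found for 9 of the 10 genes, 13 windows in all, with 4 for Igf2. Shown are the windows of the 2 Igf2 starts that hold a GC box and of Igfbp3, because these genes were the ones called between Sox2 WT and KO tumors. Capitals mark GGGCGG or its reverse complement CCGCCC, the letters of the GC box.
Igf2, chr7:142658755-142659054, minus strand: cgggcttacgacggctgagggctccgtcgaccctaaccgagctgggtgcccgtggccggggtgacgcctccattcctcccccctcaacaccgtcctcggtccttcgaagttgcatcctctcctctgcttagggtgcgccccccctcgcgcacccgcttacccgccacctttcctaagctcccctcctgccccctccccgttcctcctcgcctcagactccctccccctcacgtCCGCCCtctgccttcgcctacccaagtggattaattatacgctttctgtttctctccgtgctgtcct
Igf2, chr7:142657447-142657746, minus strand: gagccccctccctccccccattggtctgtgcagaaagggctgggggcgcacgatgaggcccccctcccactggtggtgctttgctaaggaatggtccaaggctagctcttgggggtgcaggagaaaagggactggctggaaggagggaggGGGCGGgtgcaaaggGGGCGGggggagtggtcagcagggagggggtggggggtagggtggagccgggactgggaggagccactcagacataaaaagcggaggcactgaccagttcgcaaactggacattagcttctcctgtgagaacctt
Igfbp3, chr11:7213874-7214173, minus strand: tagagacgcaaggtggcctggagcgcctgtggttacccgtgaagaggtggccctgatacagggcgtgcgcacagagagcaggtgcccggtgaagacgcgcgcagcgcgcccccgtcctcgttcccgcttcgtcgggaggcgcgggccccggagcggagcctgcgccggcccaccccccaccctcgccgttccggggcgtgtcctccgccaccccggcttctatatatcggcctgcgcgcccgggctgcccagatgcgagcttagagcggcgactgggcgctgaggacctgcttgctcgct
Read on both strands, the GC box was in 5 of the 13 windows and in 35.7% of all 32851 windows of this length. TATAAA was in 2 windows, those of Igfbp4 and Igfbp6, against 13.6% of all windows. AACAAAG, a short core that SOX factors can bind, was in none of the 13 against 5.85% of all, which says only that these letters are not in these windows.

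Igf2 was among the most abundant transcripts of the oral tumors. It was at 4738, 7589.5, 10362 and 6543 CPM in oral WT replicates 1 to 4 and at 1030.2 and 3992 CPM in oral KO replicates 1 and 2. In pancreatic tumors it was at 881, 1057, 1180.1 and 762 CPM in WT and at 325, 316 and 357 CPM in KO tumors. Every oral WT tumor was above every other tumor, and every pancreatic KO tumor below, while oral KO and pancreatic WT tumors overlapped. Per kilobase of merged exons, Igf2 ranked between 13 and 20 among 27511 protein-coding and lincRNA genes in oral WT tumors, between 182 and 298 in pancreatic WT and between 564 and 691 in pancreatic KO tumors. The oral KO tumors ranked 99 and 20.

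In pancreatic tumors Igf2 fell in Sox2 KO, from 970.1 ± 185 CPM (SD, n = 4) to 333 ± 21.1 CPM (SD, n = 3), a log2 fold change of -1.53 with its standard error (SE) beside it (adjusted p = 0.0125, SE 0.17). It was the only member of the 10 called lower there, and none was called higher, against 0.292% and 0.337% of all genes tested. Calls needed an adjusted p below 0.05 together with a log2 fold change beyond 1 in either direction. The call was lost without KO replicate 1 (adjusted p = 0.0626), without KO replicate 2 (adjusted p = 0.071) and in a fit of all 13 tumors (-1.54, adjusted p = 0.133). Igf2 was lower in all 3 pancreatic KO tumors than in every WT tumor, and the summed fibroblast markers were higher in 2 of the 3. The 5 adipocyte markers (Adipoq, Plin1, Cidec, Fabp4 and Lep) summed to 2269, 518 and 803 CPM in KO replicates 1, 2 and 3. In pancreatic WT tumors they summed to 1479 to 2961 CPM. The part of these cell types in the Igf2 change was not tested. In oral tumors the mean went from 7308 ± 2352 CPM (SD, n = 4) to 2511 ± 2094 CPM (SD, n = 2), a log2 fold change of -1.49 (adjusted p = 0.121, SE 0.59), which was not called. Both oral KO tumors were below all 4 WT tumors, an arrangement found in 25.7% of all genes tested there. The oral value was -2.71 without KO replicate 2 and -0.82 without KO replicate 1, and DESeq2 (-1.51, adjusted p = 0.0288) and the fit of all 13 tumors (-1.54, adjusted p = 0.0259) called it. The difference between the tissues in this change was 0.00 (standard error 0.57); its adjusted p was 1.0, and differences of either sign lie within that error.

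Reads of Igf2 and the overlapping gene model Gm49394 on the same strand cannot be fully told apart, since 61.9% of the 31-base sequences of Igf2 recur elsewhere, mostly there. Gm49394 held at most 1.55% of the Igf2 level in any tumor, and with both summed the changes were -1.54 in pancreatic (adjusted p = 0.0127) and -1.49 in oral tumors (adjusted p = 0.119). The antisense gene Igf2os (ENSMUSG00000086266), which starts 81.6 kb from the start of H19 and was counted by strand, was at 30.7 to 90.6 CPM in oral WT, 4.96 and 18.1 CPM in oral KO, 2.86 to 5.15 CPM in pancreatic WT and 0.684 to 1.86 CPM in pancreatic KO tumors. Its groups stood in the order of those of Igf2.

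**Figure D1:**
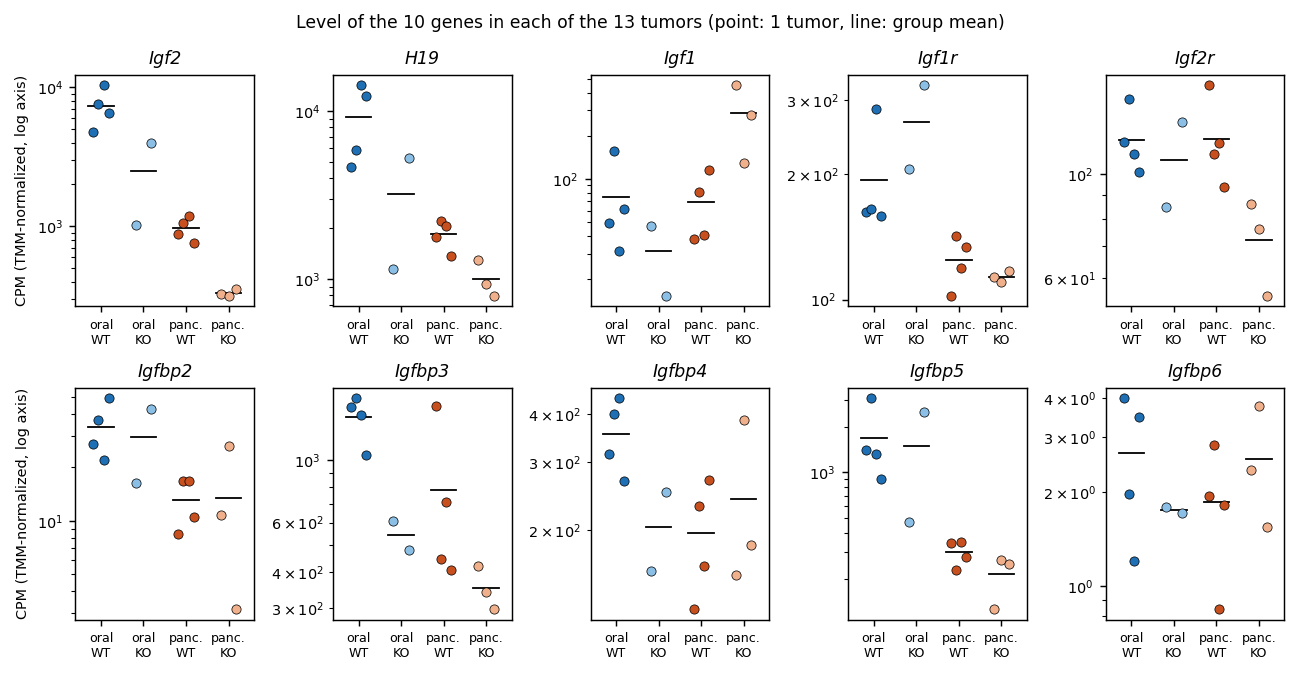
Level of each of the 10 genes in CPM (TMM-normalized, log axis, a separate scale per gene) by group, with 1 point per tumor and a line at the group mean. Igf2 was at 4738 CPM or more in all oral WT tumors and at 357 CPM or less in all pancreatic KO tumors. The group mean of Igf1 was highest in pancreatic KO tumors. Their range, 129 to 451 CPM, overlapped that of oral WT tumors, 31.4 to 157 CPM.

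H19, a long non-coding RNA, was at 4643, 5862, 14328 and 12308 CPM in oral WT replicates 1 to 4 and at 1151 and 5255 CPM in oral KO tumors. It was at 1784, 2216, 2077 and 1369 CPM in pancreatic WT and at 1289, 929 and 792 CPM in pancreatic KO tumors. Pancreatic KO and WT tumors did not overlap, whereas oral KO replicate 2 lay within the range of the oral WT tumors. The log2 fold changes, -0.88 in pancreatic tumors (adjusted p = 0.119, SE 0.23) and -1.48 in oral tumors (adjusted p = 0.201, SE 0.75), were not called. Without oral KO replicate 1 the oral value was -0.77, and without oral KO replicate 2 it was -2.90. In pancreatic tumors, groups that did not overlap with KO lower were found in 8.75% of all genes tested, and Igf2, H19 and Igf2r were 3 of the 10 members in that arrangement.

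Per kilobase, H19 was the most abundant of the 10 genes in every group, at 3774 ± 1933 CPM per kb in oral WT (SD, n = 4) and 408 ± 104 CPM per kb in pancreatic KO tumors (SD, n = 3). The ratio of Igf2 to H19, both per kilobase, was 0.439, 0.557, 0.311 and 0.229 in oral WT and 0.385 and 0.327 in oral KO tumors. It was 0.212, 0.205, 0.244 and 0.239 in pancreatic WT and 0.109, 0.146 and 0.193 in pancreatic KO tumors. The ratio was thus lower in every pancreatic KO tumor than in every pancreatic WT tumor, while the oral KO tumors lay within the oral WT range.

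Between tissues, Igf2 and H19 were higher in oral tumors. In Sox2 WT tumors Igf2 was 7.53-fold higher in oral than in pancreatic tumors (log2 2.91, adjusted p = 5.62e-04, SE 0.27) and H19 was 4.99-fold higher (log2 2.32, adjusted p = 0.00372, SE 0.38). In Sox2 KO tumors Igf2 was 7.22-fold higher in oral tumors (log2 2.85, adjusted p = 0.0148, SE 0.53), and the log2 difference of H19, 1.61 (adjusted p = 0.0831, SE 0.60), was not called, although it was called without oral KO replicate 1 (2.38, adjusted p = 0.0244) and in DESeq2 (1.59, adjusted p = 0.0285), while without oral KO replicate 2 it was 0.18 (adjusted p = 0.703). The Igf2 value was 1.61 without oral KO replicate 2 and 3.57 without oral KO replicate 1, and its call was lost without pancreatic KO replicate 2 (2.82, adjusted p = 0.0514). The comparisons share tumors with those of genotype and are not independent of them. Of the 10 fibroblast markers, 9 were also called higher in oral WT than in pancreatic WT tumors, with a median log2 fold change of 2.71, and their summed level did not overlap between the tissues. The squamous markers also did not overlap between WT tumors, at 3966 to 7484 CPM in oral and 7926 to 13713 CPM in pancreatic tumors, and between KO tumors all 12 skeletal muscle markers were called higher in oral tumors, with a median log2 fold change of 10.14. The part of these cell types in the tissue differences of Igf2 and H19 was not tested. Within oral tumors the fibroblast sums of the KO tumors lay inside the WT range. Their squamous sums lay below it and their skeletal muscle sums above it. The 2 oral KO tumors were the lowest of the tissue for Igf2, and the part of these cell types in that was not tested.

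**Figure D2:**
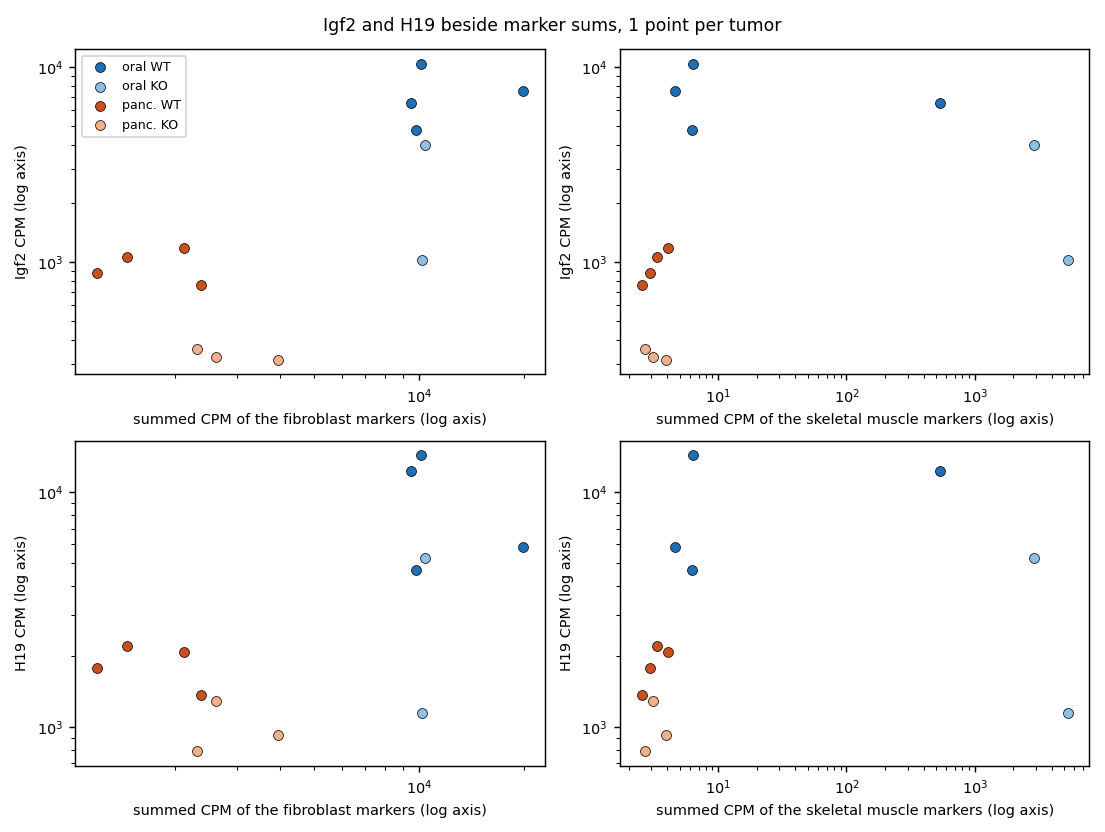
Igf2 (upper row) and H19 (lower row) in CPM against the summed CPM of 10 fibroblast markers (left) and 12 skeletal muscle markers (right), all on log axes, with 1 point per tumor. Oral and pancreatic tumors separate along the fibroblast axis, and oral KO replicates 1 and 2, at 5363 and 2919 CPM of muscle markers, lie below the oral WT tumors in Igf2.

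Igf1 (ENSMUSG00000020053, chr10:87858265-87937042, plus strand), the ligand that predominates after birth, showed another pattern. It was at 49.4, 157, 31.4 and 61.9 CPM in oral WT, 47.2 and 15.3 CPM in oral KO, 37.7, 81.3, 40.7 and 116 CPM in pancreatic WT and 451, 129 and 277 CPM in pancreatic KO tumors. All 3 pancreatic KO tumors were above all pancreatic WT tumors, an arrangement found in 6.80% of all genes tested, while the oral groups overlapped. The log2 fold change in pancreatic tumors was 2.06 (adjusted p = 0.129, SE 0.53) and was not called, although DESeq2 called it (2.05, adjusted p = 0.00263), and the oral value was -1.17 (adjusted p = 0.308, SE 0.76). The difference between the tissues, oral minus pancreatic, was -3.32 (adjusted p = 0.0463, SE 1.01), and Igf1 was the only member for which it was called, against 12.3% of all genes tested in either direction. This call stood at the threshold: the adjusted p ran from 0.0305 to 0.159 over the fits that left out 1 tumor, with values from -4.39 to -2.67, and it was above 0.05 in 9 of 13. Across KO tumors, Igf1 was 9.53-fold lower in oral than in pancreatic tumors (log2 -3.25, adjusted p = 0.0244, SE 0.74), and this value was -4.24 without oral KO replicate 1 and its call was lost without oral KO replicate 2 (-2.62, adjusted p = 0.0849) and without pancreatic KO replicate 1 (-2.70, adjusted p = 0.053). All 10 fibroblast markers had positive log2 fold changes in pancreatic KO against WT tumors, with a median of 0.81 and none called. In pancreatic WT tumors Igf1 was highest in replicate 4, which also had the highest fibroblast sum. Among the KO tumors it was highest in replicate 1 and the fibroblast sum in replicate 2. The part of stromal cells in the Igf1 difference was not tested.

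The balance of the ligands set the pancreatic KO tumors apart, while the oral KO tumors overlapped both the oral WT and the pancreatic WT tumors. Per kilobase, Igf2 exceeded Igf1 83.6-fold to 572-fold in oral WT tumors, 37.8-fold and 453-fold in the oral KO tumors and 11.4-fold to 50.2-fold in pancreatic WT tumors. In pancreatic KO replicates 1, 2 and 3 the ratio was 1.25, 4.24 and 2.22. The pancreatic KO tumors did not overlap with any other group. Both levels entered this ratio: the Igf2 level in pancreatic KO tumors was below, and the Igf1 level above, that of every pancreatic WT tumor.

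Igf1r (ENSMUSG00000005533, chr7:67952827-68233668, plus strand), the signaling receptor, was at 162, 165, 286 and 159 CPM in oral WT and 205 and 326 CPM in oral KO tumors. It was at 102 to 142 CPM in pancreatic WT and 110.1 to 117 CPM in pancreatic KO tumors. Groups did not overlap, with oral higher, in 14.2% of all genes between WT and in 7640 of 24787 between KO tumors. For Igf1r, every oral tumor was above every pancreatic tumor. Between Sox2 KO tumors the difference was called (log2 1.17, adjusted p = 0.0142, SE 0.21), and between Sox2 WT tumors it was not (log2 0.64, adjusted p = 0.0571, SE 0.21). Without oral KO replicate 2 the former was 0.83 and below the fold threshold. The genotype changes, 0.53 in oral (adjusted p = 0.273, SE 0.32) and -0.12 in pancreatic tumors (adjusted p = 0.711, SE 0.13), were not called.

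Igf2r (ENSMUSG00000023830, chr17:12682406-12769664, minus strand), which clears IGF2 and is itself imprinted in mice, had the smallest difference of the 10 genes between the WT tumors of the tissues, at 118 ± 18.7 CPM in oral WT and 119 ± 25.8 CPM in pancreatic WT tumors (SD, n = 4 each). The log2 difference was -0.01 (adjusted p = 0.979, SE 0.18), and 0.0033 with the size factors of DESeq2. In pancreatic KO tumors it was at 86.1, 76.1 and 54.9 CPM against 155, 110.4, 117 and 93.7 CPM in WT, with no overlap and a log2 fold change of -0.71 (adjusted p = 0.152, SE 0.20) that was not called. In oral KO tumors it was at 85.0 and 129 CPM, on both sides of the WT mean. Per kilobase, Igf1r over Igf2r was 0.634 to 1.44 in oral WT, 1.34 and 1.40 in oral KO, 0.366 to 0.789 in pancreatic WT and 0.730 to 1.18 in pancreatic KO tumors.

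Igfbp3 (ENSMUSG00000020427, chr11:7206086-7213923, minus strand) encodes the main carrier of IGFs in the blood and also restrains IGF signaling in tissues. It was at 1539.9, 1647, 1435 and 1042 CPM in oral WT tumors and 609 and 478 CPM in oral KO tumors, and the groups did not overlap. Igfbp3 fell in the oral KO tumors by 1.30 on the log2 scale (adjusted p = 0.0317, SE 0.28), from 1416 ± 264 CPM (SD, n = 4) to 544 ± 92.9 CPM (SD, n = 2). It was the only member of the 10 called lower in oral KO tumors, where 2.89% of all genes were, and none was called higher, where 8.81% were. These shares themselves rested on single tumors: 1968 genes higher and 646 lower became 43 and 27 without WT replicate 1, 19 and 17 without WT replicate 2, 912 and 302 without WT replicate 3, 25 and 23 without KO replicate 1 and 97 and 31 without KO replicate 2. The call was lost without WT replicate 1 (-1.25, adjusted p = 0.0708), WT replicate 2 (-1.22, adjusted p = 0.0851), WT replicate 3 (-1.28, adjusted p = 0.0566), KO replicate 1 (-1.51, adjusted p = 0.0794) or KO replicate 2 (-1.10, adjusted p = 0.142), and kept without WT replicate 4. With library sizes and TMM taken from protein-coding genes alone, it was -1.11 and still called (adjusted p = 0.038). That scaling put the median of all genes at 0.19, and 2442 genes were then called higher and 312 lower in oral KO tumors, against 1968 and 646 with TMM over all genes. All 12 skeletal muscle markers had positive log2 fold changes in this comparison, with a median of 3.96, and 1 was called higher. Of the 10 fibroblast markers, 6 were negative and 4 positive, with a median of -0.12, and 2, Dcn and Lum, were called lower. Of the 7 squamous markers, 5 were negative and 2 positive, with a median of -0.84, and Krt15 was called lower. The squamous markers summed to 3917 and 3043 CPM in the oral KO tumors and to 3966 to 7484 CPM in the WT tumors, without overlap. The part of any of these cell types in the Igfbp3 change was not tested. In pancreatic tumors Igfbp3 was at 1554, 448, 710.0 and 409 CPM in WT and 420.2, 340.4 and 297 CPM in KO tumors. The groups overlapped, WT replicate 1 stood highest, and the log2 fold change of -1.14 (adjusted p = 0.306, SE 0.48) was not called. Without pancreatic WT replicate 1, Igfbp3 was called higher in oral WT than in pancreatic WT tumors (1.46, adjusted p = 0.00811), which it was not with all tumors (0.86, adjusted p = 0.172, SE 0.42).

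Igfbp5 (ENSMUSG00000026185, chr1:72857932-72874884, minus strand) encodes a binding protein that adheres to extracellular matrix. It was at 1411, 3064, 1328 and 908 CPM in oral WT, 475 and 2504 CPM in oral KO, 227 to 352 CPM in pancreatic WT and 127 to 267 CPM in pancreatic KO tumors. Oral tumors were all above the pancreatic ones in 14.2% of all genes between WT and in 7640 of 24787 between KO tumors. For Igfbp5, the lowest oral tumor was above the highest pancreatic tumor. The tissue difference was called between WT tumors (5.58-fold higher in oral, log2 2.48, adjusted p = 0.00259, SE 0.37) and between KO tumors (log2 2.73, adjusted p = 0.0322, SE 0.69), the latter at 3.53 without oral KO replicate 1 and lost without oral KO replicate 2 (1.12, adjusted p = 0.137) and without any single pancreatic KO tumor (2.52 to 2.92, adjusted p = 0.068 to 0.0774). Igfbp5 and the summed fibroblast markers were both higher in oral tumors. In oral KO replicates 1 and 2 the fibroblast sums were 10202 and 10365 CPM, with Igfbp5 at 475 and 2504 CPM. The part of fibroblasts in the Igfbp5 differences was not tested. Genotype changes were -0.11 in oral (adjusted p = 0.928, SE 0.71) and -0.47 in pancreatic tumors (adjusted p = 0.458, SE 0.28).

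Igfbp2 (ENSMUSG00000039323, chr1:72824503-72852474, plus strand), a binding protein frequent in fetal tissue and tumors that lies beside Igfbp5, was at 27.2, 36.9, 21.9 and 49.0 CPM in oral WT and 8.45, 16.8, 16.7 and 10.5 CPM in pancreatic WT tumors. These groups did not overlap and the log2 difference of 1.37 (adjusted p = 0.0139, SE 0.31) was called, though not in the fit of all 13 tumors (adjusted p = 0.0959). It was at 16.4 and 42.9 CPM in oral KO and 10.8, 26.3 and 3.17 CPM in pancreatic KO tumors, and no genotype change was called (-0.11 and 0.04). Between Sox2 WT tumors, Igf2, H19, Igfbp2 and Igfbp5 were the 4 members called higher in oral tumors and none was called lower, against 9.30% and 7.24% of all genes tested. Groups that did not overlap with oral WT higher were found in 14.2% of all genes and in these 4 and Igf1r. Between Sox2 KO tumors, Igf2, Igf1r and Igfbp5 were called higher and Igf1 lower in oral tumors, against 14.6% and 10.7% of all genes. The split over all genes there, 3608 higher and 2644 lower, was 4666 and 1515 with protein-coding scaling, which put the median of all genes at 0.27. With that scaling the difference between tissues in the genotype change was called in 2223 genes upward and 653 downward, against 1914 and 1254, with the median at 0.17.

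Igfbp4 (ENSMUSG00000017493, chr11:99041244-99054392, plus strand), which inhibits IGF action until the protease PAPP-A cleaves it, was at 315, 401, 440.3 and 268 CPM in oral WT and at 156 and 250.4 CPM in oral KO tumors. Both KO tumors were below the WT tumors, but the log2 fold change of -0.74 (adjusted p = 0.12, SE 0.29) was not called. No member had both oral KO tumors above the WT tumors, an arrangement of 22.4% of all genes, and 3 of the 10, Igf2, Igfbp3 and Igfbp4, had both below, an arrangement of 25.7%. In pancreatic tumors Igfbp4 was at 124 to 269.5 CPM in WT and 152 to 388 CPM in KO tumors, with overlap. Between WT tumors it was higher in oral tumors by 0.86 on the log2 scale (adjusted p = 0.0403, SE 0.26), which is below the fold threshold. Igfbp6 (ENSMUSG00000023046, chr15:102144362-102149511, plus strand), whose protein prefers IGF2, was the lowest of the 10 genes in every group, between 0.843 and 3.99 CPM in all 13 tumors, and no difference of it was called.

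In oral tumors 9 of the 10 genes had a negative log2 fold change, with a median of -0.63, against 50.1% of all genes and a median of 0.00. With protein-coding scaling 6 were negative, Igf2r, Igfbp2 and Igfbp5 turning to 0.13, 0.078 and 0.093, against a median of all genes of 0.19. In pancreatic tumors 6 were negative, with a median of -0.29, against 47.4% and 0.02. The tissue difference, oral minus pancreatic, was positive for 9 members between WT tumors (median 0.86) and for 7 between KO tumors (median 0.83), called or not, while 49.7% and 50.1% of all genes were negative.

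**Figure D3:**
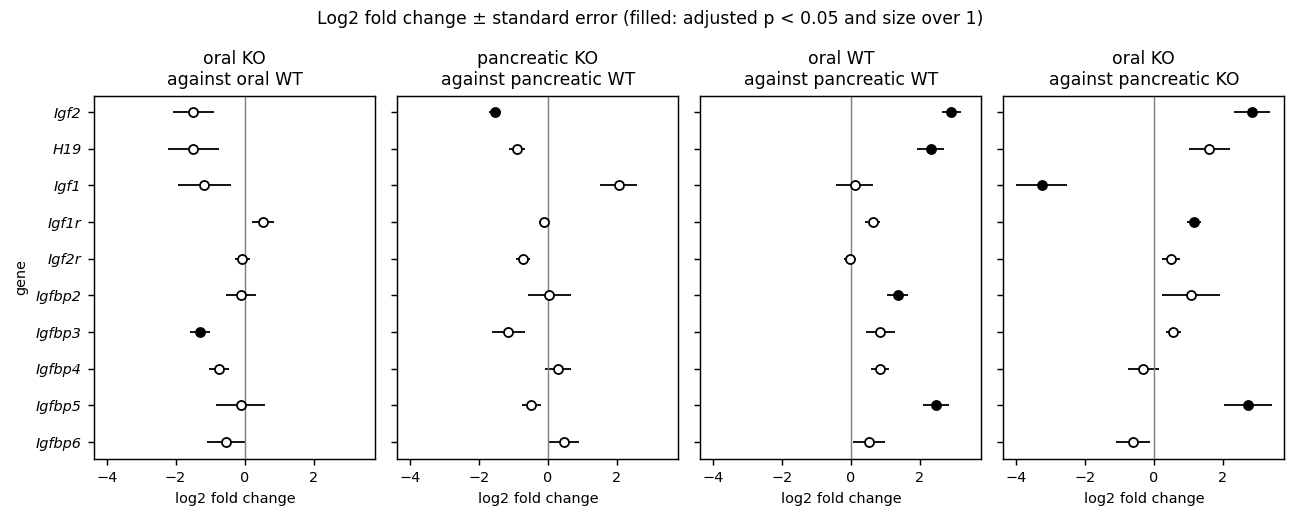
Log2 fold change of the 10 genes in 4 comparisons, with the standard error as a bar and filled points for genes that were called. Igfbp3 (-1.30) was filled in the oral comparison of genotypes, Igf2 (-1.53) in the pancreatic one, and Igf2, H19, Igfbp2 and Igfbp5 between the WT tumors of both tissues.

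The make-up of the binding proteins was compared per kilobase over the 5 Igfbp genes. Igfbp3 took 45.8% to 60.2% and Igfbp5 26.3% to 44.4% of their sum in oral WT tumors. In oral KO replicate 1 the shares were 60.9% and 24.7%, and in oral KO replicate 2 they were 23.5% and 64.0%, so that the 2 KO tumors differed in which binding protein led. In pancreatic WT tumors Igfbp3 took 53.2% to 84.4%, Igfbp4 4.78% to 24.9% and Igfbp5 9.74% to 18.95%, and in pancreatic KO tumors they took 42.1% to 67.9%, 17.4% to 33.9% and 10.7% to 23.03%. The sum itself was 575 to 1149 CPM per kb in oral WT, 319.7 and 651 in oral KO, 245 to 588 in pancreatic WT and 181 to 259 in pancreatic KO tumors.

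**Figure D4:**
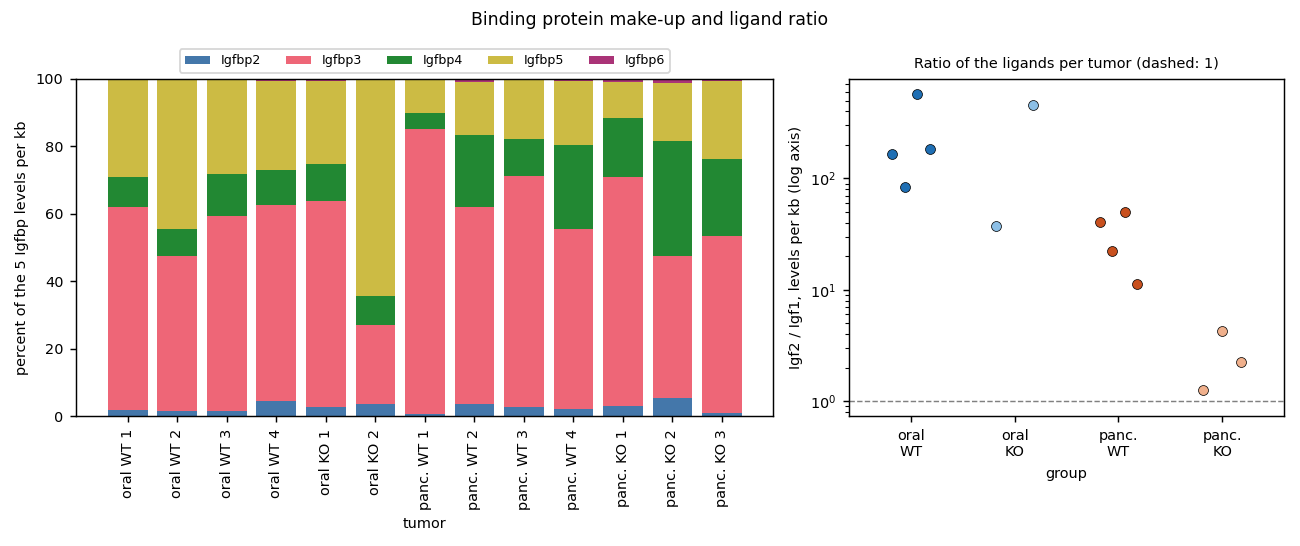
Left, share of each binding protein gene in the summed level per kb of the 5 Igfbp genes, 1 bar per tumor (percent). Right, ratio of Igf2 to Igf1 per kb on a log axis, 1 point per tumor, with a dashed line at a ratio of 1; the pancreatic KO tumors lay at 1.25, 2.22 and 4.24.

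The 2 oral KO tumors differed more than the tumors of any other group in Igf2, H19 and Igfbp5, but not in the other members. Oral KO replicate 2 was 3.88-fold higher than replicate 1 in Igf2, 4.57-fold in H19 and 5.27-fold in Igfbp5, and 0.324-fold in Igf1, whereas Igfbp3 (0.784-fold) and Igfbp6 (0.961-fold) were close. In the pancreatic KO tumors the highest level of Igf2 was 1.13-fold the lowest, and that of Igf1r 1.06-fold. Igfbp2 was the most variable there, at 8.28-fold.

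The regulators and signaling genes of the axis were described through 8 regulators (other IGF-binding genes and the proteases that cleave binding proteins) and 24 signaling genes. In the genotype comparisons 0 of 7 tested regulators and 0 of 24 signaling genes were called in either tissue. Over all genes tested, 2614 of 22342 were called in oral and 155 of 24653 in pancreatic tumors. The difference between tissues in the genotype change was called in 12.3% of all genes, in either direction. Among the list genes it was called lower for Igfbp7 (-1.84, adjusted p = 0.0285), Pik3r2 (-1.15, adjusted p = 0.0221) and Akt1 (-1.32, adjusted p = 0.0124), a kinase downstream of IGF1R. Akt1 was at 117 and 119 CPM in oral KO against 198 to 309 CPM in oral WT tumors, and at 236 to 295 CPM in pancreatic KO against 173 to 254 CPM in pancreatic WT tumors. Between WT tumors, Pappa2 (3.69), Htra1 (1.92) and Pappa (2.23), genes of secreted proteases that cleave IGFBPs, were called higher in oral tumors, as were Irs1 (2.22) and Grb10 (2.52), an adaptor of the receptor and an imprinted inhibitor of it, while Pik3cb (-1.06) was called lower. Between KO tumors, Pappa (4.70) and Pappa2 (2.83) among regulators and Grb10 (3.04), Pik3r3 (1.19) and Irs2 (1.70) among signaling genes were called higher in oral tumors, and Igfbp7 (-1.64), Akt2 (-1.06) and Akt1 (-1.19) lower. Of all genes tested, 9.30% were called higher and 7.24% lower in oral tumors between WT tumors, and 14.6% and 10.7% between KO tumors. Pappa was at 25.3 CPM in oral KO replicate 1 and 431 CPM in replicate 2.

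Other imprinted genes and the neighbors of Igf2 and H19 were described through lists of 21 and 10 genes, which share Ins2 and Ascl2. In oral tumors, Cdkn1c, which encodes the cell cycle inhibitor p57, fell in KO by 2.64 on the log2 scale (adjusted p = 0.0183, SE 0.37), from 39.7 to 76.7 CPM in WT to 11.0 and 6.71 CPM in KO tumors. The non-coding antisense genes Kcnq1ot1 (2.11, adjusted p = 0.0231) and Airn (1.74, adjusted p = 0.0201), which lie at the imprinted Kcnq1 and Igf2r loci, rose in oral KO tumors. Kcnq1ot1 was at 62.7 to 163 CPM in oral WT and at 339 and 629 CPM in oral KO tumors, and Airn at 3.61 to 4.74 CPM and at 15.4 and 11.2 CPM. Oral KO replicate 1 also had the lowest share of counts on protein-coding genes, and the part of that in these non-coding calls was not tested. Nctc1, a non-coding gene 19.5 kb from the start of H19 that is known from muscle, was called higher as well (3.61, adjusted p = 0.0473), with 18 and 21 counts in oral KO tumors and 1, 1, 2 and 13 in oral WT replicates 1 to 4. WT replicate 4 and both KO tumors are those with raised skeletal muscle markers. The part of muscle tissue in these 4 calls was not tested. The calls rested on single tumors here as they did over all genes. Of the 59 regulators, signaling, imprinted and neighbor genes tested, 4 were called in oral tumors, 0 without WT replicate 1, WT replicate 2, KO replicate 1 or KO replicate 2, 3 without WT replicate 3 and 8 without WT replicate 4. Over all 22342 genes tested 2614 were called. The median log2 fold change of the 59 list genes was -0.30, against 0.00 for all genes tested in oral tumors.

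In pancreatic tumors 0 of 57 of these genes were called by edgeR, 12 had an unadjusted p below 0.05, and DESeq2 called 2. Over all 24653 genes tested, edgeR called 155 and 3916 had an unadjusted p below 0.05. The 57 list genes had a median log2 fold change of 0.11, against 0.02 for all genes tested. The imprinted genes had a median of 0.38 there, while Igf2 and H19 were at -1.53 and -0.88. Without pancreatic WT replicate 4, 1 of these genes was called. The difference between tissues was called for 12 of 60 genes, against 12.3% of all genes, among them Cdkn1c (-2.57, adjusted p = 0.0161), Phlda2 (-2.85, adjusted p = 0.033), Sgce (-2.17, adjusted p = 0.0261), Lsp1 (-1.07, adjusted p = 0.0492), Cd81 (-1.15, adjusted p = 0.0292) and Tssc4 (-1.08, adjusted p = 0.0198) in the lower direction and Kcnq1ot1 (2.34, adjusted p = 0.0161), Airn (1.68, adjusted p = 0.0298) and Nctc1 (4.63, adjusted p = 0.0464) in the higher. That count ran from 4 without oral KO replicate 1 to 15 without oral WT replicate 4, and was 6 without oral KO replicate 2 or pancreatic WT replicate 3 and 7 without pancreatic WT replicate 1, KO replicate 2 or KO replicate 3.

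Between WT tumors 15 of 59 of these genes were called, 14 of them higher in oral tumors, against 3832 of all 23164 genes tested, 2155 of them higher. Among imprinted genes Mest led (log2 5.48, adjusted p = 7.47e-04, SE 0.55), at 486, 300.3, 1363 and 815 CPM in oral and 12.0 to 26.6 CPM in pancreatic WT tumors, followed by Cdkn1c (3.00, adjusted p = 0.00107) and Sgce (2.50, adjusted p = 0.00108). Among neighbors, Th, the tyrosine hydroxylase gene between Ins2 and Ascl2, was called higher (6.18, adjusted p = 0.00395), with 323 to 753 counts in oral WT tumors and 0, 0, 6 and 22 counts in pancreatic WT tumors. Lsp1 (1.03, adjusted p = 0.00923) and Mrpl23 (1.02, adjusted p = 0.0189), on the far side of H19, were also called higher, while Cd81 (-0.39), Tssc4 (0.24) and Kcnq1 (0.51) were not called. Between KO tumors, Kcnq1ot1 (2.16), Peg3 (3.21) and Airn (1.91) among imprinted genes and Tnnt3 (5.74), Th (8.21) and Nctc1 (5.36) among neighbors were called higher in oral tumors, and Phlda2 (-2.90) and Cd81 (-1.59) lower. In all 19 of 59 genes of the 4 lists were called there, against 6252 of all 24787 genes tested, but 11 without oral KO replicate 2 and 12 without oral KO replicate 1 or pancreatic KO replicate 1. Tnnt3 encodes a troponin of skeletal muscle.

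**Figure D5:**
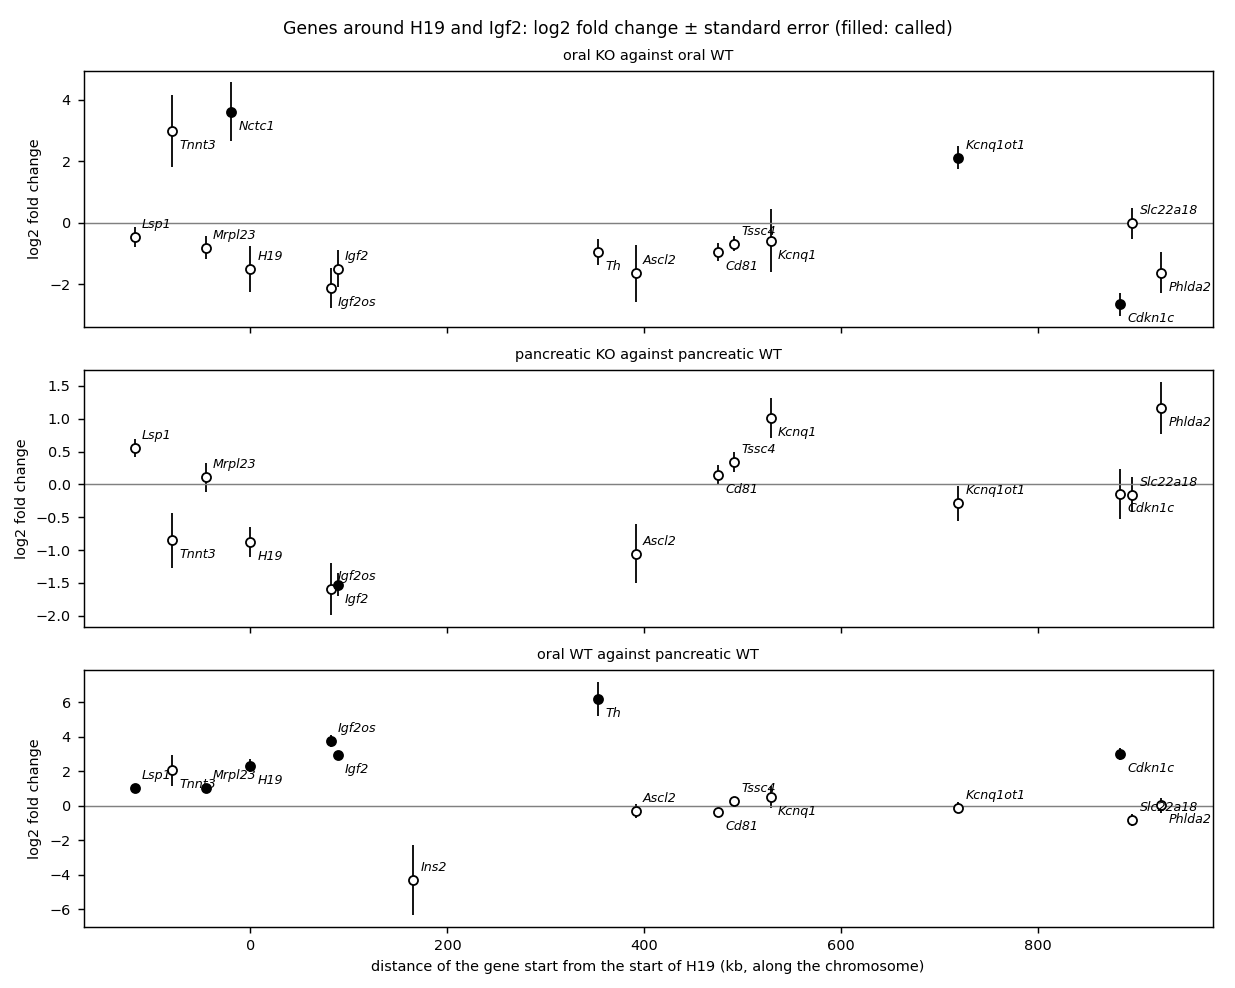
Log2 fold change with standard error (bars) of the genes around H19 and Igf2 against the distance of each gene's start from that of H19 (kb), for 3 comparisons with separate vertical scales; filled points were called. In pancreatic KO tumors Igf2 (-1.53) was filled and H19 (-0.88) was not, and between WT tumors Igf2, H19, Igf2os, Th, Lsp1, Mrpl23 and Cdkn1c were filled above 0.

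The genes whose pattern over the 13 tumors was most like that of Igf2 were sought among 25836 genes by the root mean square distance of log2 CPM, each gene centred on its mean. Igf2os was nearest (0.47), followed by Gm36660 (0.59), H19 (0.62), Gm14486 (0.66) and Twist2 (0.66), a transcription factor of mesenchymal cells that was at 2.25 CPM or less in every tumor. Nearest to H19 were Rhox4a (0.56), Prss50 (0.59), Igf2 (0.62), Gm45716 (0.62) and Tmem26 (0.62). These distances describe tumors that differ in tissue first, and several of these genes have low counts.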

How the data were processed

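RNA-seq of 13 bulk tumors in 4 groups (oral WT 4, oral KO 2, pancreatic WT 4, pancreatic KO 3) was used. The authors trimmed reads with Trim Galore 0.6.10, quantified them with kallisto 0.50.0 in stranded mode against the GENCODE M23 transcriptome (GRCm38) and summed them with tximport; the deposited values are estimated counts per gene, 27.3% of them not whole. Such counts can split reads between overlapping or near-identical transcripts. Here they were rounded, and symbols, lengths and positions came from GENCODE M21, which held 55141 of the 55332 identifiers with values (56085 in the table). Members and gene lists were chosen with earlier results of these data known.

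Genes reaching 10 counts in 2 or more of the tumors fitted were tested with edgeR 4.0.16 (R 4.3.3), using TMM factors and its robust quasi-likelihood test, with p-values adjusted by Benjamini-Hochberg over all genes tested, and called at adjusted p < 0.05 and absolute log2 fold change > 1. Only the groups compared entered each fit, except the difference between tissues (oral KO minus WT less pancreatic KO minus WT), which used all tumors. The script was tested on simulated counts. Standard errors are the log2 fold change over the square root of the F statistic. Levels are CPM with TMM factors from the fit of 13 tumors, and levels of different genes were compared per kb of merged exons. Log2 CPM used a prior count of 2. Named were the 10 members, all list genes called between genotypes, and in tissue comparisons the 3 with the smallest adjusted p per list and direction. A list gene that this rule also named is not reported here. Alternatives were other scalings, filters, dispersions, DESeq2 1.42.0 with and without apeglm 1.24.0, a fit of all tumors, a replicate block, thinned counts, the longest transcript as length, each tumor left out, and, added after the data were seen, Igf2 and Gm49394 summed.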

Additional observations from a re-analysis of the deposited data

Results flagged for a closer look

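The change of Igf1 with Sox2 loss differed between the tissues: the log2 difference, oral minus pancreatic, was -3.32 (edgeR quasi-likelihood test of the difference itself, adjusted p = 0.0463), with all 3 pancreatic KO tumors above the 4 WT tumors and the 2 oral KO tumors overlapping the oral WT tumors. The adjusted p was above 0.05 in 9 of the 13 fits that left out 1 tumor.

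Igf1r in oral WT tumors stood out because 1 of the 4 tumors, replicate 3 at 286 CPM, was far from the other three at 159 to 165 CPM. The gap to its nearest neighbor was 0.932 of the range of log2 CPM, above Dixon's 95% critical value for 4 samples, which chance passes in about 1 in 20 groups. This was checked for each of the 10 genes in both groups of 4 tumors, and only this set passed.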

How the results depend on the processing

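Of the log2 fold changes of members under alternatives that kept all tumors, 423 kept direction and side of the threshold, 8 lost and 8 gained a call, and 16 changed sign. In oral KO against WT, sign changes were Igf2r 0.13, Igfbp2 0.078 and Igfbp5 0.093 with protein-coding scaling, Igf2r 0.039 and Igfbp5 0.0050 with 10 counts required in every tumor, and Igf2r 0.013 after thinning. Between WT tumors Igf2r was 0.0033 with DESeq2 factors and in DESeq2, and 0.0080 without a filter. In this section the tissue difference is the oral genotype change minus the pancreatic one, not the difference in level between tissues. For Igf2 it was 0.0026 as reported, -0.063 with DESeq2 factors and in DESeq2, and -0.13 without a filter. Calls in the oral comparison were 1 member and 4 pathway genes, meaning the regulators, signaling, imprinted and neighbor genes (8 without a filter, 2 and 11 in DESeq2, 2 and 13 in the fit of all tumors). In pancreatic tumors they were 1 and 0 (2 and 2 in DESeq2, 0 members in the fit of all tumors). Between KO tumors 4 members became 2 without a filter, with Igf1 and Igfbp5 lost. For the tissue difference 1 member became 0 with protein-coding scaling or without a filter, and 12 pathway genes became 7 with 10 counts in every tumor. The tissue difference is itself a fit of all 13 tumors, and thinning was not run for it. With the longest transcript as length, 11 of 40 group levels per kb moved by more than their SD, those of Igf2 in pancreatic, Igf1r in all, Igfbp2 in WT, and Igfbp3 in oral and pancreatic KO groups. The cause was not tested, except that thinning and stricter filters leave fewer genes.

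The deviations of same-numbered tumors from their group means had correlations from -0.08 to 0.32, the highest for the pancreatic tumors numbered 1. Differently numbered tumors were not correlated for comparison, so these values cannot show whether the numbers pair the tumors. With the number as a replicate block, calls were 0 members and 1 pathway gene in oral tumors, 2 pathway genes in pancreatic tumors and 5 for the tissue difference, where Igf1 was not called (-4.09, adjusted p = 0.130) and Igfbp4 was (-1.25, adjusted p = 0.0497). Signs changed for Igfbp2 in pancreatic tumors (-0.38), Igf2r between WT tumors (0.0031) and the tissue differences of Igfbp2 (0.14) and Igfbp5 (-0.36).

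Leaving out each tumor gave 0 to 1 members and 0 to 8 pathway genes in oral tumors, 0 to 1 and 0 to 1 in pancreatic tumors, 4 to 5 and 12 to 15 between WT tumors, 1 to 5 and 11 to 14 between KO tumors, and 0 to 1 and 4 to 15 for the tissue difference. Values that changed sign ran in oral tumors from -0.36 to 0.18 (Igf2r), -0.93 to 0.40 (Igfbp2) and -1.70 to 0.64 (Igfbp5), and in pancreatic tumors from -0.89 to 0.51 (Igfbp2) and -0.21 to 0.56 (Igfbp4). Between WT tumors they ran from -0.53 to 0.51 (Igf1) and -0.12 to 0.16 (Igf2r), and between KO tumors from -0.65 to 0.23 (Igfbp4). For the tissue difference they ran from -1.28 to 0.62 (Igf2), -2.12 to 0.018 (H19), -1.07 to 0.73 (Igfbp2) and -1.33 to 1.01 (Igfbp5). With 1 oral KO tumor left, it is assumed to vary like the other groups.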
